A study of Mus musculus with 6 samples.

Results

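The 9 genes described here are lipid and fuel genes for which repression by NR1D has been reported: Scd1, Scd2, Elovl5, Elovl6, Lpl, Cd36, Fabp4, Plin2 and Pdk4. They were chosen by name, and their rows were taken from the 27179 genes counted in each library. The question put to them was whether they were higher in both cell lines without NR1D than in the line that keeps it.

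RNA was sequenced from 3 immortalized mouse embryonic fibroblast (MEF) lines of the C57BL/6 strain, each with 2 libraries from independent RNA preparations of untreated cells growing in serum. All 3 lines lack Per1 and Per2, so no line has the whole clock. Cry/Per_KO cells lack Cry1, Cry2, Per1 and Per2 and keep NR1D1 and NR1D2. Cry/Per/Nr1d_KO cells are a single clone made from Cry/Per_KO cells by CRISPR with guides to Nr1d1 and Nr1d2, and they lack CRY, PER and NR1D. Per/Nr1d_KO cells lack Per1, Per2, Nr1d1 and Nr1d2 and keep CRY1 and CRY2, and their Nr1d genes were cut with the same guides. A difference between lines therefore cannot be told apart from a difference between clones. Per/Nr1d_KO keeps Cry and so was not made from Cry/Per_KO cells. Where Per/Nr1d_KO is compared, a difference also cannot be told apart from any difference between the cells of origin. The p-values measure the spread between RNA preparations of 1 line.

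For 4 of the 6 libraries, the genotype label and the name of the deposited counts disagree. The pair labelled Cry/Per/Nr1d_KO was deposited under the name of the Cry/Per_KO line, and the pair labelled Cry/Per_KO under the name of the Cry/Per/Nr1d_KO line, while label and name are the same for Per/Nr1d_KO. Libraries are called by their labels below. By the labels, the NR1D-retaining pair is the one labelled Cry/Per_KO. By the deposited names, it is the one labelled Cry/Per/Nr1d_KO. Both readings are given wherever a direction depends on them.

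NR1D1 and NR1D2 (REV-ERBα and REV-ERBβ) are nuclear receptors that repress transcription. They bind AGGTCA elements preceded by an A/T-rich stretch and recruit the corepressor NCOR1 with a histone deacetylase, while the ROR receptors activate from the same elements. In liver, muscle and fat they repress genes of fatty acid synthesis, uptake and storage as well as the clock genes Arntl (Bmal1) and Cry1. SCD1 and SCD2 put the first double bond into saturated fatty acids. ELOVL6 lengthens saturated and monounsaturated fatty acids, and ELOVL5 lengthens polyunsaturated ones. Lipoprotein lipase (LPL) frees fatty acids from circulating triglycerides, CD36 carries them across the plasma membrane and FABP4 binds them inside the cell. PLIN2 coats lipid droplets. PDK4 phosphorylates and shuts pyruvate dehydrogenase, which turns cells from glucose to fatty acids as fuel.

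Library totals ran from 53764390 to 85927236 counts. Transcripts of the targeted genes were counted in every library, so their presence does not by itself identify a line that lost the proteins. Nr1d1 had 3158 and 3146 normalized counts in the pair labelled Cry/Per/Nr1d_KO, 9337 and 9249 in the pair labelled Cry/Per_KO and 5359 and 4838 in Per/Nr1d_KO. Nr1d2 had 4881 and 5506, 8262 and 8008, and 5558 and 5717 in the same order. The levels of both were lower in the pair labelled Cry/Per/Nr1d_KO than in the pair labelled Cry/Per_KO. Arntl had 1192 and 1171 normalized counts in the pair labelled Cry/Per/Nr1d_KO, 2176 and 2208 in the pair labelled Cry/Per_KO and 2493 and 2455 in Per/Nr1d_KO. It was thus lowest in the pair that the deposited names, and not the labels, give as NR1D-retaining. Cry1, the other clock target, had 1698 and 1724, 5323 and 5478, and 1535 and 1592 in the same order, so it was high in the pair labelled Cry/Per_KO alone. Both genes, which NR1D represses, were thus lower in the pair given as NR1D-retaining by the deposited names than in the other pair that lacks Cry. Of 11 fibroblast markers, 8 or 9 had a mean of at least 100 normalized counts in each line, but Lum was at 0 in 2 of the lines and Thy1 at 0 in Per/Nr1d_KO. All 8 tested fibroblast markers were called in Per/Nr1d_KO against the pair labelled Cry/Per/Nr1d_KO, where 20.7% of all genes tested were called, and 6 of 8 against the pair labelled Cry/Per_KO, where 29.0% were. In the former, 4 were higher and 4 lower, among them Col3a1 (5.72 on the log2 scale) and S100a4 (-2.83). The part of these differences in the changes of Fabp4, Pdk4 and Plin2 in this line was not tested.

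Promoter sequences (250 bases before to 50 after a transcript start, RefSeq on GRCm38.p6) were at hand for 5 of the 9 genes: Elovl5, Elovl6, Plin2, Cd36 and Pdk4. Entries for Lpl, Scd1, Scd2 and Fabp4 were not matched. Those of Elovl6, Plin2 and Cd36 are printed because they were the 3 of 5 that held AGGTCA, the core of the NR1D and ROR element, although each of these genes was highest in a different line. Capitals mark AGGTCA, which stands on the other strand in all 3 and so reads TGACCT, and the E-box CACGTG. The Elovl6 window is chr3:129532136-129532435 on the plus strand, the Plin2 window chr4:86670010-86670309 on the minus strand and the Cd36 window chr5:17835847-17836146 on the minus strand, each written 5′ to 3′ along the gene.
Elovl6: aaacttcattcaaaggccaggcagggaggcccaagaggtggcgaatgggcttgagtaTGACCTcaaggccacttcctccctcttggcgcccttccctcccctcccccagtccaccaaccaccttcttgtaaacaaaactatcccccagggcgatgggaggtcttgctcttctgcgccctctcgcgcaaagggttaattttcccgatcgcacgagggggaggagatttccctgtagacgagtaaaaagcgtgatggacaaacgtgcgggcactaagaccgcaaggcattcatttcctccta
Plin2: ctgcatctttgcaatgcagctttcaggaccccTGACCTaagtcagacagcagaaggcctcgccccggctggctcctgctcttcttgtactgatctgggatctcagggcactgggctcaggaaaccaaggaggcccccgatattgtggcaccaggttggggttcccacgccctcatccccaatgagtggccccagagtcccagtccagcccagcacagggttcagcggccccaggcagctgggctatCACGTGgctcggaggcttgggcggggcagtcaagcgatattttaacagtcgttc
Cd36: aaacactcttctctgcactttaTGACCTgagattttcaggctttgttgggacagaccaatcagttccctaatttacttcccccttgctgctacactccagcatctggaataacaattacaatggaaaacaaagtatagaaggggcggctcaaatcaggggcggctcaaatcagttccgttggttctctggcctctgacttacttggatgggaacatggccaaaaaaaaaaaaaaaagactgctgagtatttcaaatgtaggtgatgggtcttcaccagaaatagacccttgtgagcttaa
The AGGTCA match began 193 bases before the start in Elovl6, 218 before it in Plin2 and 228 before it in Cd36. The Cd36 start and the Plin2 start are those of a RefSeq transcript that begins inside the span given for the gene. Both strands were searched, and this core was in 16.3% of 32851 promoters of the same length. With a T before it, as in Plin2 alone, the core was in 2.61%, and with an A before it, as in none of the 5, in 4.72%. The E-box, bound by CLOCK-BMAL1, was in 7.15% of the promoters. It was found in Plin2, across the start, and in Elovl5, 161 bases before it. The windows of Elovl5 and Pdk4 held no match to the core.

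None of the genes tested was called higher in both lines without NR1D at the limit on the fold, by either reading. With all 6 libraries and that limit dropped, 4 of 7 were higher in both by the labels, against 26.9% of all genes tested. By the deposited names it was then 0 of 7, against 16.7%. A gene was called where edgeR's quasi-likelihood test gave an adjusted p under 0.05 (Benjamini-Hochberg, over 11934 genes) and the change was above 0.81 on the log2 scale. The 11934 genes tested were those that averaged 100 or more normalized counts, that is, counts scaled to a common library size. The test covered 7 of the 9 genes. Lpl and Cd36 were below the mean of 100, and the other 7 were at 109 or more in each library. By the labels, 0 of 7 were called higher in the pair labelled Cry/Per/Nr1d_KO and also in Per/Nr1d_KO than in the pair labelled Cry/Per_KO, against 6.33% of all genes tested. By the deposited names, 0 of 7 were called higher in the pair labelled Cry/Per_KO and also in Per/Nr1d_KO than in the pair labelled Cry/Per/Nr1d_KO, against 2.35%. DESeq2 also gave 0 and 0, against 6.00% and 2.37%. Both comparisons of a reading share their reference pair.

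Without the limit on the fold, the readings parted. By the labels, 4 of 7 (Elovl6, Fabp4, Plin2 and Scd2) were then higher in both, against 26.9% of all genes, and an unadjusted p under 0.05 in both gave the same number against 27.4%. By the names it was 0 of 7, against 16.7%, and 0 of 7 at an unadjusted p under 0.05, against 17.3%. Lpl and Cd36 did not meet the question either, since each was at or near 0 in Per/Nr1d_KO.

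**Figure D1:**
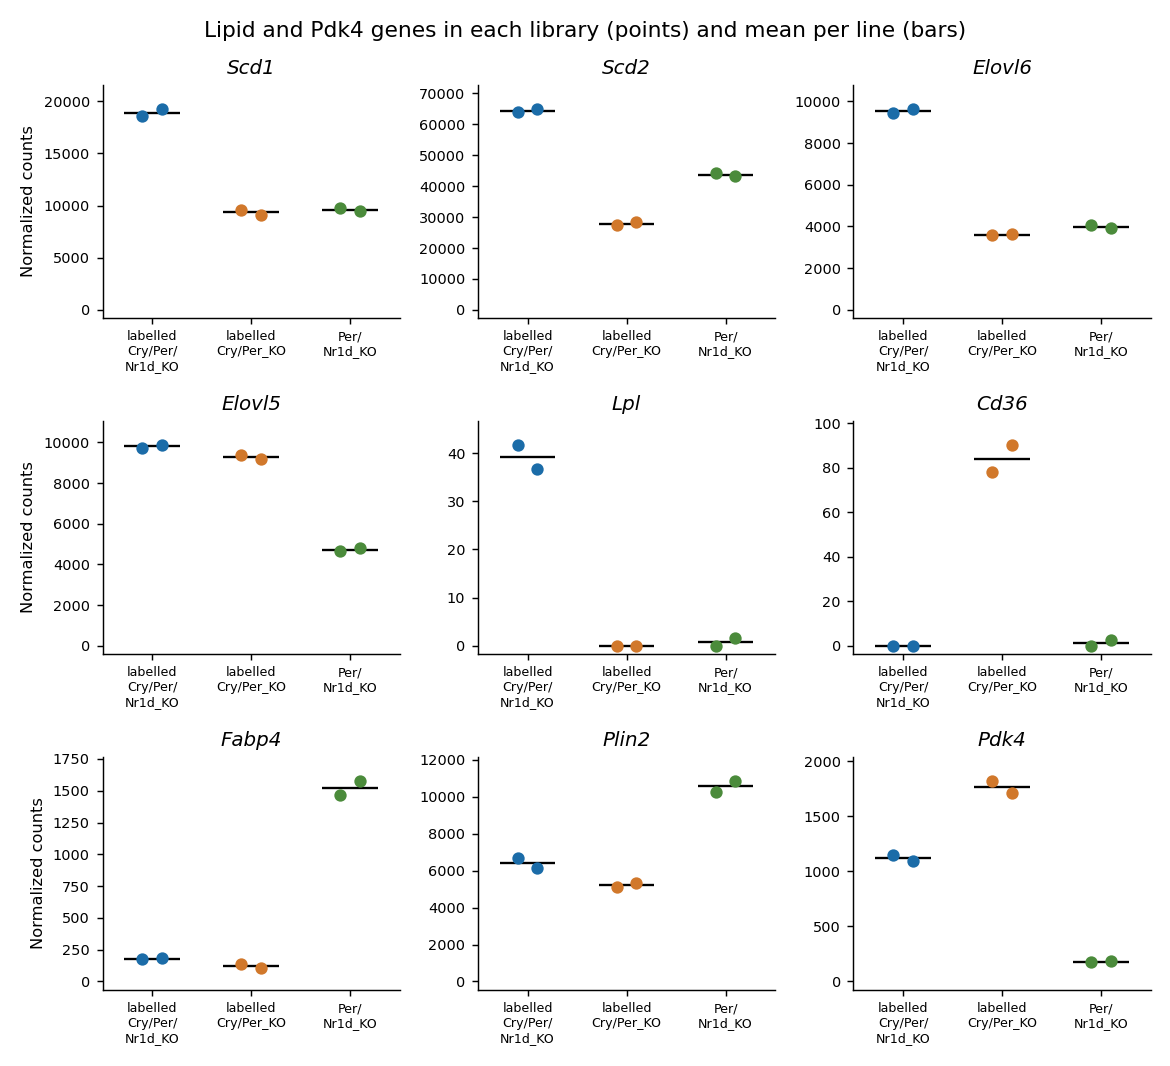
Normalized counts of the 9 genes (linear axes, 1 panel a gene) in each library; points are libraries, bars the mean of the 2 libraries of a line. The pair labelled Cry/Per/Nr1d_KO was highest for 5 genes, the pair labelled Cry/Per_KO for 2 (Cd36 and Pdk4) and Per/Nr1d_KO for 2 (Fabp4 and Plin2).

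The 9 genes did not share a pattern. The pair labelled Cry/Per/Nr1d_KO had the highest mean for 5 of them: Scd1, Scd2, Elovl6, Elovl5 and Lpl. Pdk4 and Cd36 were highest in the pair labelled Cry/Per_KO, and Fabp4 and Plin2 in Per/Nr1d_KO.

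The stearoyl-CoA desaturases were highest in the pair labelled Cry/Per/Nr1d_KO. Scd1 (Entrez 20249, chr19:44394450-44407709, GRCm38) had 18553 and 19263 normalized counts in the pair labelled Cry/Per/Nr1d_KO, 9553 and 9127 in the pair labelled Cry/Per_KO and 9736 and 9453 in Per/Nr1d_KO. The first pair stood apart, and the other 2 pairs overlapped. Scd1 was 2.02-fold lower in the pair labelled Cry/Per_KO (log2 fold change -1.02, SE 0.0444, adjusted p = 2.88e-11) and 1.97-fold lower in Per/Nr1d_KO (-0.98, SE 0.0443, adjusted p = 1.60e-11) than in the pair labelled Cry/Per/Nr1d_KO. Between Per/Nr1d_KO and the pair labelled Cry/Per_KO its log2 fold change was 0.04, with a 95% interval from -0.0565 to 0.134.

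Scd2 (Entrez 20250, chr19:44293676-44306864), which lies near Scd1 on chromosome 19, had 63939 and 64975 normalized counts, 27528 and 28324, and 44204 and 43246 in the same order of lines. Here the 3 pairs formed 3 separate levels, with Per/Nr1d_KO in the middle. It was 2.31-fold lower in the pair labelled Cry/Per_KO than in the pair labelled Cry/Per/Nr1d_KO (-1.21, SE 0.0424, adjusted p = 2.88e-12). Per/Nr1d_KO was 1.47-fold below the pair labelled Cry/Per/Nr1d_KO and 1.57-fold above the pair labelled Cry/Per_KO, both under the limit on the fold, with adjusted p of 7.93e-09 and 1.02e-09. The 2 desaturase genes thus had different profiles. They share 2.97% of the 50-base stretches of Scd1 and 2.66% of those of Scd2. How reads from these stretches were counted is not given in the sources used here.

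The elongases parted from each other in the pair labelled Cry/Per_KO. Elovl6 (Entrez 170439, chr3:129532386-129638495) had 9433 and 9633 normalized counts in the pair labelled Cry/Per/Nr1d_KO, 3586 and 3626 in the pair labelled Cry/Per_KO and 4046 and 3930 in Per/Nr1d_KO. Only the first pair was high. Elovl6 was 2.64-fold lower in the pair labelled Cry/Per_KO (-1.40, SE 0.0456, adjusted p = 1.27e-12) and 2.39-fold lower in Per/Nr1d_KO (-1.26, SE 0.0453, adjusted p = 9.55e-13). Between these 2 low pairs the log2 fold change was 0.14 (95% interval 0.0455 to 0.243, adjusted p = 0.00961), with Per/Nr1d_KO above and no overlap. Of the 50-base stretches of Elovl6, 3.98% also occur in other genes, and 0.529% of its exon bases lie opposite Gm35986 on the other strand.

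Elovl5 (Entrez 68801, chr9:77917365-77984519) had 9748 and 9878, 9375 and 9173, and 4649 and 4794 normalized counts. It was high in both pairs that lack Cry by their labels and low in Per/Nr1d_KO. Per/Nr1d_KO was 2.08-fold below the pair labelled Cry/Per/Nr1d_KO (-1.05, SE 0.0439, adjusted p = 5.55e-12) and 1.96-fold below the pair labelled Cry/Per_KO (-0.97, SE 0.0439, adjusted p = 1.15e-11). Since label and name give the first 2 pairs each other's line, this contrast with Per/Nr1d_KO is in the same direction by both readings. The 2 high pairs differed by -0.08 (95% interval -0.173 to 0.00983, adjusted p = 0.0953).

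Of the genes of fatty acid uptake and binding, Lpl and Cd36 were each detected above 3 reads in 1 pair only, and Fabp4 was highest in Per/Nr1d_KO. Lpl (Entrez 16956, chr8:68880555-68906932) had 41.7 and 36.6 normalized counts in the pair labelled Cry/Per/Nr1d_KO, from 47 and 33 reads. It had 0 reads in both libraries labelled Cry/Per_KO, and 0 and 2 reads in Per/Nr1d_KO. It was therefore detected well above 3 reads in the first pair alone. Set against a floor of 3 reads in each library, Lpl was at least 12.5-fold higher in the pair labelled Cry/Per/Nr1d_KO than in the pair labelled Cry/Per_KO. Against Per/Nr1d_KO the ratio was 40.6, with a 95% interval of 10.9 to 341 that covers counting error only. This ratio rests on the 2 reads of the second Per/Nr1d_KO library. Without the first, the fitted log2 fold change of Per/Nr1d_KO against the pair labelled Cry/Per/Nr1d_KO went from -5.17 to -4.54. Lpl reaches a mean of 10 normalized counts only through the pair where it is high, so no test of it is given.

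Cd36 (Entrez 12491, chr5:17781690-17888959) showed the opposite choice of lines. The pair labelled Cry/Per/Nr1d_KO had 0 reads, the pair labelled Cry/Per_KO had 70 and 92 reads (77.9 and 90.3 normalized counts), and Per/Nr1d_KO had 0 and 3. Cd36 was at least 28.1-fold higher in the pair labelled Cry/Per_KO than in the pair labelled Cry/Per/Nr1d_KO, and 57.9-fold higher than in Per/Nr1d_KO (95% counting interval 19.5 to 284). No test is given for Cd36 either, for the same reason. Between the 2 pairs where Lpl or Cd36 was lowest, at 0 to 3 reads, no difference was detectable. As the libraries are bulk RNA, fewer cells with a transcript and less of it in each cell cannot be told apart.

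Fabp4 (Entrez 11770, chr3:10204342-10208616) had 175 and 185 normalized counts, 140 and 109, and 1468 and 1579 in the order used above. Per/Nr1d_KO stood far above both other pairs. It was 8.48-fold above the pair labelled Cry/Per/Nr1d_KO (3.08, SE 0.102, adjusted p = 3.42e-13) and 12.3-fold above the pair labelled Cry/Per_KO (3.62, SE 0.109, adjusted p = 8.44e-14). Fabp4 was also 1.45-fold lower in the pair labelled Cry/Per_KO than in the pair labelled Cry/Per/Nr1d_KO, under the limit on the fold (adjusted p = 0.00255).

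The droplet coat gene Plin2 (Entrez 11520, chr4:86626910-86670217) had 6662 and 6160, 5124 and 5326, and 10246 and 10861 normalized counts. The 3 pairs did not overlap, and Per/Nr1d_KO was highest, as for Fabp4 but by far less. Plin2 was 2.02-fold higher in Per/Nr1d_KO than in the pair labelled Cry/Per_KO (1.01, SE 0.0512, adjusted p = 4.49e-11) and 1.65-fold higher than in the pair labelled Cry/Per/Nr1d_KO (0.72, adjusted p = 3.85e-09), the latter under the limit. Between the other pairs, the log2 fold change was -0.30 in the one labelled Cry/Per_KO (adjusted p = 9.45e-05), also under it.

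The kinase gene Pdk4 (Entrez 27273, chr6:5483351-5496278) went the other way from Fabp4 in Per/Nr1d_KO. It had 1147 and 1095 normalized counts in the pair labelled Cry/Per/Nr1d_KO, 1825 and 1715 in the pair labelled Cry/Per_KO and 175 and 185 in Per/Nr1d_KO. No 2 pairs overlapped. Pdk4 was 6.21-fold lower in Per/Nr1d_KO than in the pair labelled Cry/Per/Nr1d_KO (-2.63, SE 0.0877, adjusted p = 3.74e-13) and 9.79-fold lower than in the pair labelled Cry/Per_KO (-3.29, SE 0.0857, adjusted p = 1.47e-14). The pair labelled Cry/Per_KO was 1.58-fold above the pair labelled Cry/Per/Nr1d_KO (0.66, adjusted p = 4.59e-07), under the limit.

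**Figure D2:**
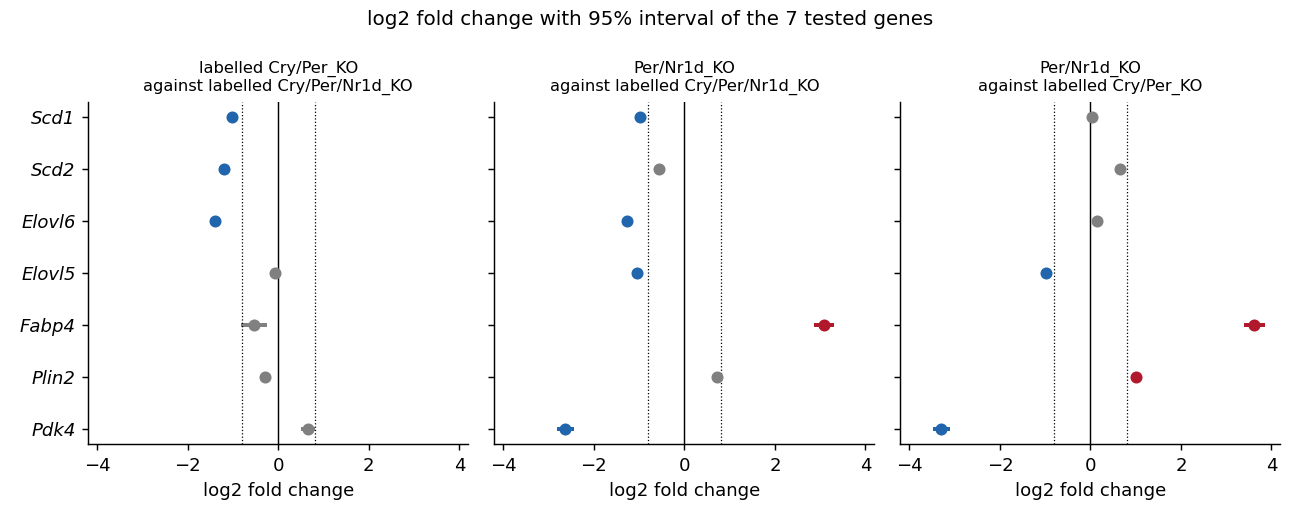
log2 fold change (horizontal axis) with its 95% interval for the 7 genes tested, in the 3 comparisons of lines. Red points were called higher, blue called lower and grey not called; dotted lines mark the limit of 0.81 on the log2 scale, and the genes beyond 2 on the log2 scale are Fabp4 (above) and Pdk4 (below), both in Per/Nr1d_KO.

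Counted over each comparison, 3 of the 7 genes were lower and 0 higher in the pair labelled Cry/Per_KO than in the pair labelled Cry/Per/Nr1d_KO, where 8.95% of all genes tested were lower, 7.86% higher and 16.8% called in either direction. In Per/Nr1d_KO against the pair labelled Cry/Per/Nr1d_KO, 4 were lower and 1 higher, and the shares over all genes were 9.35%, 11.3% and 20.7%. In Per/Nr1d_KO against the pair labelled Cry/Per_KO, 2 were lower and 2 higher, against 13.8%, 15.2% and 29.0%. With no limit on the fold, 6, 7 and 6 of the 7 passed, against shares over all genes of 76.4%, 75.8% and 82.1%. The median log2 fold change of the 7 was -0.54, -0.98 and 0.14 in these 3 comparisons, beside -0.0033, 0.01 and 0.03 over all genes. The median size of the change, without its sign, was 0.66, 1.05 and 0.97, beside 0.34, 0.34 and 0.46. All 3 comparisons are made from the same 3 pairs of libraries, so they are not independent.

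Per kilobase of exon (GENCODE vM21), which allows genes to be compared with each other, Scd2 was the most abundant of the 9 in each line. Its mean was 11797 normalized counts per kilobase in the pair labelled Cry/Per/Nr1d_KO, 5111 in the pair labelled Cry/Per_KO and 8002 in Per/Nr1d_KO. In the pair labelled Cry/Per/Nr1d_KO it was followed by Scd1 (3865), Elovl5 (2786), Plin2 (1826), Elovl6 (1482), Pdk4 (319), Fabp4 (40.1) and Lpl (3.74), and no neighbours in this order overlapped. In the pair labelled Cry/Per_KO the order was Elovl5 (2633), Scd1 (1909), Plin2 (1488), Elovl6 (561), Pdk4 (504), Fabp4 (27.8) and Cd36 (23.4), and only Fabp4 and Cd36 overlapped. In Per/Nr1d_KO, Plin2 (3005) was second to Scd2, followed by Scd1 (1961), Elovl5 (1341), Elovl6 (620), Fabp4 (339) and Pdk4 (51.2). Fabp4 stood above Pdk4 in this line only. In each line the desaturase, elongase and Plin2 transcripts stood above those of Pdk4, Fabp4, Cd36 and Lpl.

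The list counts that follow leave out the 9 genes and can be read against the shares over all genes given above, which were 7.86% higher and 8.95% lower, 11.3% and 9.35%, and 15.2% and 13.8% in the 3 comparisons. They also leave out genes whose mean over their 2 lower lines was under 100, since these were tested only through the line where they are high. Of 9 listed genes of fatty acid synthesis, 8 were tested, and 1 was called in any comparison: Acaca, which makes malonyl-CoA, was lower in the pair labelled Cry/Per_KO than in the pair labelled Cry/Per/Nr1d_KO (-0.88, adjusted p = 2.27e-09). The list's median log2 fold change was -0.20 in that comparison and -0.29 in Per/Nr1d_KO against the same pair. Fasn, fatty acid synthase, was not called, with -0.55 and -0.58 in these comparisons.

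Among the other 12 tested of 17 genes of elongation and desaturation, 3 were lower (25%) and 0 higher in the pair labelled Cry/Per_KO than in the pair labelled Cry/Per/Nr1d_KO. These were the polyunsaturated fatty acid desaturases Fads1 (-0.89) and Fads2 (-1.08) and the dehydratase Hacd1 (-0.97). In Per/Nr1d_KO against the pair labelled Cry/Per/Nr1d_KO, 1 rose and 1 fell (8.33% each). Elovl7, which elongates saturated fatty acids, rose by 3.58 on the log2 scale (adjusted p = 2.30e-16), and Elovl4, which makes very long chains, had a change of -1.65. Against the pair labelled Cry/Per_KO, 4 rose (33.3%) and 1 fell, with Elovl7 at 3.02, Fads2 at 1.07 and Elovl4 at -2.15. Normalized counts of Elovl7 were 434 and 452, 642 and 666, and 5221 and 5369 in the 3 lines. Of the elongases named, then, Elovl5, Elovl6 and Elovl4 were low in Per/Nr1d_KO against the pair labelled Cry/Per/Nr1d_KO, and Elovl7 was high.

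Of the 24 other genes of fatty acid uptake and binding, 15 were tested, and 13 of these are counted. In the pair labelled Cry/Per_KO, 0 were higher and 4 lower (30.8%) than in the pair labelled Cry/Per/Nr1d_KO, among them the VLDL receptor gene Vldlr (-1.91). In Per/Nr1d_KO, 1 was higher and 6 were lower (46.2%) than in the pair labelled Cry/Per/Nr1d_KO, and 1 was higher and 3 were lower (23.1%) than in the pair labelled Cry/Per_KO. Slc27a3, of the fatty acid transport protein family, rose by 3.22 and 4.14. The acyl-CoA synthetases Acsl4 (-1.55 and -1.56) and Acsl6 (-2.35 and -2.03) fell. The 2 genes left out were Angptl4 and Lipg, and they are given by their levels. Angptl4, an inhibitor of LPL, had 11.5 and 12.2 normalized counts in the pair labelled Cry/Per/Nr1d_KO, 34.5 and 38.3 in the pair labelled Cry/Per_KO and 363 and 333 in Per/Nr1d_KO. Lipg, the endothelial lipase gene and a relative of Lpl, had 253 and 261, 11.1 and 20.6, and 150 and 155 in the same order.

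Among 25 other genes of lipid droplets and triglycerides, 17 were tested and 16 are counted. Plin4, another perilipin, was the 1 called in the pair labelled Cry/Per_KO against the pair labelled Cry/Per/Nr1d_KO (1.05). In Per/Nr1d_KO, 5 rose (31.2%) and 0 fell against the pair labelled Cry/Per/Nr1d_KO, and 4 rose (25%) and 0 fell against the pair labelled Cry/Per_KO. Seipin (Bscl2), which acts where droplets form, rose by 1.84 and 2.29, and the phosphatidate phosphatase gene Lpin3 by 1.86 and 2.10. Mgll, the monoglyceride lipase that ends triglyceride breakdown, was left out, with levels of 194 and 121, 252 and 269, and 7.61 and 13.4 normalized counts. The median of the 16 was 0.19 and -0.05 in these comparisons, with genes on both sides of 0.

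**Figure D3:**
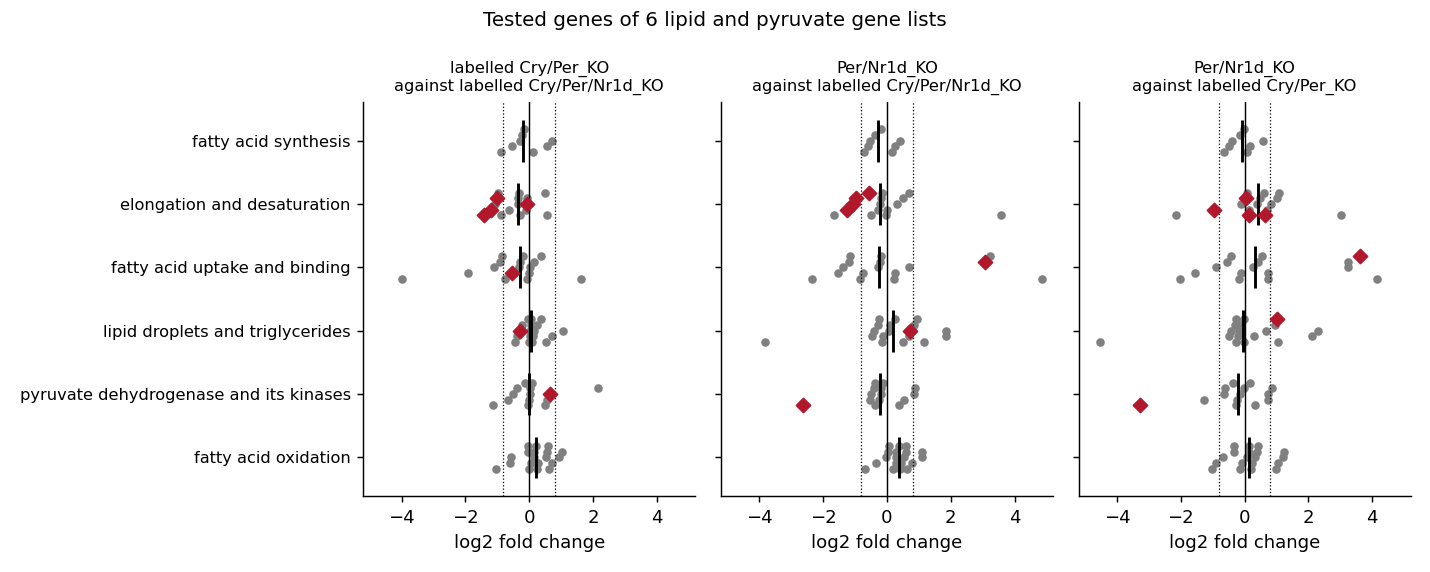
log2 fold change (horizontal axis) of the tested genes of 6 gene lists in the 3 comparisons; grey points are other genes, red diamonds genes of the 9, black bars the median of a list with its red diamonds, and dotted lines the limit of 0.81. The points include Angptl4, Lipg and Mgll, which the counts leave out. Within pyruvate dehydrogenase and its kinases, Pdk4 lies far below the other genes of the list in both comparisons with Per/Nr1d_KO.

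All 13 other genes of the pyruvate dehydrogenase complex, its kinases, phosphatases and pyruvate carriers were tested, and 1 rose and 1 fell (7.69% each) in the pair labelled Cry/Per_KO against the pair labelled Cry/Per/Nr1d_KO. Pdk1 rose by 2.16 there, with 2896 and 2933 normalized counts against 13023 and 12971, and the phosphatase gene Pdp2 had a change of -1.13. In Per/Nr1d_KO, 2 rose (15.4%) and 0 fell against the pair labelled Cry/Per/Nr1d_KO, among them Pdk1 (0.89), and Pdk1 was lower than in the pair labelled Cry/Per_KO (-1.27). Pdk2 and Pdk3 were not called in any comparison, with changes between -0.65 and 0.48. Of 25 genes of fatty acid oxidation, 19 were tested. There, 2 rose (10.5%) and 1 fell in the pair labelled Cry/Per_KO against the pair labelled Cry/Per/Nr1d_KO, where the carnitine carrier gene Slc25a20 had 1.01 and the dehydrogenase gene Hadh -1.03. In Per/Nr1d_KO, 2 rose (10.5%, near the share over all genes) and 0 fell against the pair labelled Cry/Per/Nr1d_KO, among them Cpt1a (1.11), which lets fatty acids into mitochondria. Against the pair labelled Cry/Per_KO, 4 rose (21.1%) and 2 fell (10.5%).

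Of 20 regulators of lipid genes, 13 were tested and 12 are counted. In the pair labelled Cry/Per_KO, 1 rose and 2 fell (16.7%) against the pair labelled Cry/Per/Nr1d_KO. In Per/Nr1d_KO, 2 rose (16.7%) and 1 fell against that pair, and 3 rose (25%) and 1 fell against the pair labelled Cry/Per_KO. The gene left out was Pparg, the master regulator of fat cell formation and an activator of Fabp4, which was detected above 1 read in Per/Nr1d_KO only. It had 0 and 1 read in the pair labelled Cry/Per/Nr1d_KO, 1 and 0 in the pair labelled Cry/Per_KO, and 887 and 851 normalized counts in Per/Nr1d_KO. The ratio of Per/Nr1d_KO to the pair labelled Cry/Per/Nr1d_KO was 1752, with a 95% counting interval from 314 to 69256. Foxo1, which activates Pdk4 in fasting, rose by 1.77 and 2.08 in Per/Nr1d_KO, where Pdk4 was lowest. Cebpd, an early factor of fat cell formation, rose by 2.58 and 1.53. The coactivator gene Ppargc1b fell by 3.90 and 2.72 there. Srebf2, which drives sterol genes and the LDL receptor gene, was lower in the pair labelled Cry/Per_KO than in the pair labelled Cry/Per/Nr1d_KO (-0.99), as were Scd1, Scd2 and Elovl6, while Srebf1, the activator of fatty acid synthesis genes, was not called (-0.36).

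Markers of other cell types were counted beside these results. Of 9 adipocyte markers, Pparg, Cebpa and Lipe had a mean of at least 100 normalized counts in Per/Nr1d_KO and Lipe alone in the other pairs. Their summed level was 397 and 412 in the pair labelled Cry/Per/Nr1d_KO, 336 and 412 in the pair labelled Cry/Per_KO and 1373 and 1306 in Per/Nr1d_KO. In Per/Nr1d_KO, Plin1, Cidec, Lep and Cfd were at 0, Adipoq had 1 read and Retn had 2. These 6 markers were low in the other pairs too, at 0 to 7 reads a library. Macrophages also use Fabp4, Cd36 and Lpl. Of 8 macrophage markers, Cd14 and Cd68 were at 100 or more in each line and Adgre1 was at 0 in the first 2. The sums were 899 and 921, 1439 and 1542, and 1824 and 1880. Cd14 made up most of each sum. Cd14 and Cd68 were highest in Per/Nr1d_KO, while Lyz2 was lowest there, at 25.7 and 22.2, 67.9 and 66.8, and 8.87 and 9.47. Of 7 endothelial markers, Flt1 alone reached 100, in the first 2 lines, and the sums were 2746 and 2710, 1655 and 1647, and 207 and 227. Flt1 made up most of the sums of the first 2 lines. It was lowest in Per/Nr1d_KO, while Tek was highest there, at 11.5 and 5.55, 8.90 and 6.87, and 35.5 and 48.1. Muscle cells use Lpl, Cd36 and Pdk4, and the 6 muscle markers summed to 101 and 101, 31.2 and 26.5, and 114 and 97.8. The part of these cell types in the results was not tested.

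Among the NR1D and ROR receptors and corepressors, 9 of 11 were tested. Rora, an activator at the NR1D element, had 110 and 121 normalized counts in the pair labelled Cry/Per/Nr1d_KO and was higher in the pair labelled Cry/Per_KO (1.37) and in Per/Nr1d_KO (1.20). Nr1d1 was higher in the pair labelled Cry/Per_KO than in the pair labelled Cry/Per/Nr1d_KO (1.56) and lower in Per/Nr1d_KO than in the pair labelled Cry/Per_KO (-0.87). Nr1d2 was not called in any comparison. Of 5 core clock genes bound by NR1D, all were tested and 4 are counted. In the pair labelled Cry/Per_KO, Arntl (0.89) and Cry1 (1.66) were higher than in the pair labelled Cry/Per/Nr1d_KO, and in Per/Nr1d_KO, Arntl (1.07) and Nfil3 (1.03) were. Npas2, left out of the count, had 49.7 and 41.1, 64.6 and 67.8, and 312 and 260 normalized counts. By the deposited names Arntl was thus higher in both lines without NR1D, which none of the 7 lipid genes tested was, with or without the limit on the fold. By the labels it was not, since the pair labelled Cry/Per/Nr1d_KO was lowest.

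For each of the 7 genes, the genes with the most similar profile over the 6 libraries were found by the root mean square distance of log2 CPM, each gene centred on its mean. The nearest to Elovl5 was Soat1, which esterifies cholesterol, at a distance of 0.0209. Scd1 was nearest to the predicted gene Gm5424 (0.0418) and to Nsdhl (0.0466), an enzyme of cholesterol synthesis. Scd2 was nearest to the glycine transporter gene Slc6a9 (0.0269), Plin2 to 1700123O20Rik (0.0255) and Elovl6 to the nuclear receptor gene Nr2f2 (0.0762). The profiles of Fabp4 and Pdk4 had more distant neighbours, Tgfb2 at 0.12 and Rgs17 at 0.0938.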

How the data were processed

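The authors sequenced poly-A RNA from stranded libraries as single 50-base reads, mapped them with STAR to mm10, and obtained gene counts with featureCounts. The deposited values are whole-number counts without normalization, 1 set a library. The strand setting and the handling of reads with several positions are not given in the sources used here. The deposited tables of the authors' own comparisons, made with DESeq2 1.22.2, were not used. Counts were matched to symbols by Entrez ID (25275 of 27179).

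All 6 libraries entered 1 edgeR 4.0.16 quasi-likelihood fit (R 4.3.3, limma 3.58.1) with TMM normalization, 3 groups and genes that averaged 100 or more normalized counts. The limits for a call were an adjusted p (Benjamini-Hochberg) under 0.05 and a log2 fold change beyond 0.81. The study used the same limit on the fold, but with a far stricter limit on the adjusted p. SE is the log2 fold change divided by the square root of F. Floors are 3 reads a library, and intervals of read ratios are exact. These floors and ratio intervals cover counting error only, while intervals of log2 fold changes come from the fit and include the spread between libraries. The common biological coefficient of variation was 0.0393, and every group rests on 2 libraries.

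Alternatives were DESeq2 1.42.0, its size factors, other filters, no limit on the fold, glmTreat, the compared groups alone, a replicate block and leaving out each library. The 9 genes, the gene lists and the tests were chosen with earlier results of these data known. Genes named were the 9, Nr1d1, Nr1d2, Arntl, Cry1, Npas2, Nfil3, for each list and comparison the 2 called genes that rose most and the 2 that fell most, and the 2 nearest profiles of each gene tested. The text prints some of these. Values of Fasn, Srebf1, Fads1, Hacd1, Pdk2, Pdk3 and of markers were added after they were seen. The exon lengths and the 50-base stretches shared between genes came from GENCODE vM21.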

Additional observations from a re-analysis of the deposited data

How the results depend on the processing

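Of 294 values of the 7 genes tested, over the 3 comparisons and the alternatives, 287 kept their call, 7 were called only once the limit on the fold was dropped, 0 lost a call and 0 turned in sign. Lpl and Cd36 are left out of these numbers. Without the second Per/Nr1d_KO library, Lpl and Cd36 had 0 reads in both of the pairs where each was lowest, which gives no value there. The number of the genes called in the pair labelled Cry/Per_KO against the pair labelled Cry/Per/Nr1d_KO went from 3 to 5 with a mean of at least 10 and with no filter, because Lpl and Cd36 then entered, each through the 1 pair where it is high, and to 6 with no limit on the fold. By the labels, the number higher in both lines without NR1D went from 0 to 4 with no limit on the fold. That 4 rests on all 6 libraries. Without the second library labelled Cry/Per_KO, Fabp4 went from -0.54 to -0.36 in that pair against the pair labelled Cry/Per/Nr1d_KO. Without the first Per/Nr1d_KO library, Elovl6 went from 0.14 to 0.12 in Per/Nr1d_KO against the pair labelled Cry/Per_KO.

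Over all genes, the counts of calls in the 3 comparisons, in the order used above, were 2006, 2468 and 3457. With a mean of at least 10 they were 3311, 3912 and 4996, with no filter 3808, 4576 and 5590, and with no limit on the fold 9118, 9042 and 9793. glmTreat gave 1411, 2032 and 2841 and DESeq2 2004, 2463 and 3462. Leaving out 1 library at a time gave 1962 to 2025, 2414 to 2487 and 3377 to 3476, with 3, 5 and 4 of the 7 genes called and 0 higher in both by either reading each time.

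Libraries of equal replicate number did not move together: the correlation between lines of the differences between their 2 libraries was -0.211, -0.102 and -0.0240. With only 2 libraries a line, this cannot exclude a shared day or batch. With the replicate number as a block, 2002, 2468 and 3457 genes were called, and no call of the 7 genes tested changed.

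With 2 libraries a line the spread rests on few values, and at 0 to 3 reads no difference of Lpl or Cd36 between the 2 low pairs was detectable. Label and name disagree, so both readings are given. Arntl and Cry1, which NR1D represses, were lower in the pair given as NR1D-retaining by the deposited names than in the other pair that lacks Cry. The levels of Nr1d1 and Nr1d2 were lower there too.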
